A study of Homo sapiens with 10 samples.

Results

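The comparison sets the 2 arrays of MOLT-4 cells taken at 0.5 h against the 2 arrays taken at 0 h, which are 4 of the 10 arrays of the series. MOLT-4 is an established human line of T-cell acute lymphoblastic leukaemia, and MABL is an antibody against CD47. By the labels all samples, the 0 h samples included, carried 10 ug/mL MABL together with 50 ug/mL of GAM, an agent the labels do not spell out, and they differ only in the time of treatment (0, 0.5, 1, 3 or 6 h, with 2 arrays each). The control is thus 0 h, and cells left without antibody for 0.5 h were not analysed here, so the effect of 0.5 h with antibody and GAM and that of 0.5 h in culture cannot be told apart. The line is 1 cell line, and the labels do not say that the 2 samples of a time were separate cultures. What the p-values measure is therefore the spread among these samples, and it may be technical.

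Levels are the square root of the deposited score of a probe set (a set of short oligonucleotides that reads 1 stretch of a transcript), read as log2, and a change is the 0.5 h mean minus the 0 h mean on that scale, n = 2 arrays each. Of 22215 probe sets other than Affymetrix controls, 4276 (19.2%) reached a level of 5 on at least 2 of the 10 arrays and were tested. They stood for 2819 named genes, and where a gene is given 1 value it is that of its brightest probe set. Calls were made with limma at p under 0.05 after Benjamini-Hochberg adjustment over all 4276.

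CD47 is a membrane glycoprotein that binds thrombospondin and SIRP alpha, and its ligation can trigger signals through G proteins and, in some T cells, death without the usual caspase cascade. In many stimulated cells the earliest transcripts to accumulate are those of immediate early genes such as FOS, EGR1 and IER2, which need no new protein for their induction. Transcripts of housekeeping machines such as the ribosome, the proteasome and the cytosolic chaperones are abundant in growing leukaemia cells and are commonly long-lived.

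The arrays held the RNA of a T-lineage line. Of 20 T-cell marker genes, 19 were on the array, and 6 of them lay below 5 on all 4 arrays (CD2, CD4, CD7, CD28, TRAT1 and RAG2). The 12 that passed the filter stood at 5 or higher on all 4 arrays, in part because the filter asks for that level, and 0 were called. RAG1, not tested, stood at 4.68 and 5.28 at 0 h and 3.65 and 3.64 at 0.5 h. CD3D, a chain of the T-cell receptor complex, stood at 12.46 and 12.24 at 0 h and 12.40 and 12.43 at 0.5 h. The defining markers of other cell types lay below 5 on all 4 arrays for 9 of the 10 B-cell genes on the array, 11 of 11 myeloid, 10 of 11 fibroblast, 10 of 10 epithelial and 7 of 7 natural killer cell genes. The exceptions were IGHM, at 5.91 and 5.88 at 0 h and 5.90 and 5.95 at 0.5 h, and COL1A1, at 5.11 and 5.06 at 0 h and 5.49 and 5.25 at 0.5 h. Signals from outside the cells' mRNA moved with the comparison: 18S ribosomal RNA read 8.41 and 9.65 at 0 h and 10.20 and 10.68 at 0.5 h, and the added spike-in transcripts 9.80 and 10.20 against 10.07 and 10.47. The median level of the tested probe sets was lower at 0.5 h by 0.13 (6.98 and 6.94 against 6.88 and 6.78), while the median of their changes was 0.01. Changes given "with equal array medians" are therefore higher by 0.13 than those as deposited.

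At 0.5 h, 728 probe sets were called, which is 17.0% of those tested, and nearly all of them were lower. Lower were 646 (15.1%) and higher 82 (1.92%), and the falls were also the deeper changes. Their median was -0.98 and the lowest -2.42, against a median of 0.55 and a highest of 1.91 among the rises. With equal array medians 656 were called lower (15.3%) and 295 higher (6.90%); 582 of the falls and all 82 rises were called both ways. By gene, 388 of 2819 were called lower (13.8%) and 48 higher (1.70%), or 406 (14.4%) and 201 (7.13%) with equal array medians. The median change over all 2819 genes was 0.03, or 0.15 with equal array medians. A bulk array cannot tell fewer cells of a kind from less RNA per cell.

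**Figure D1:**
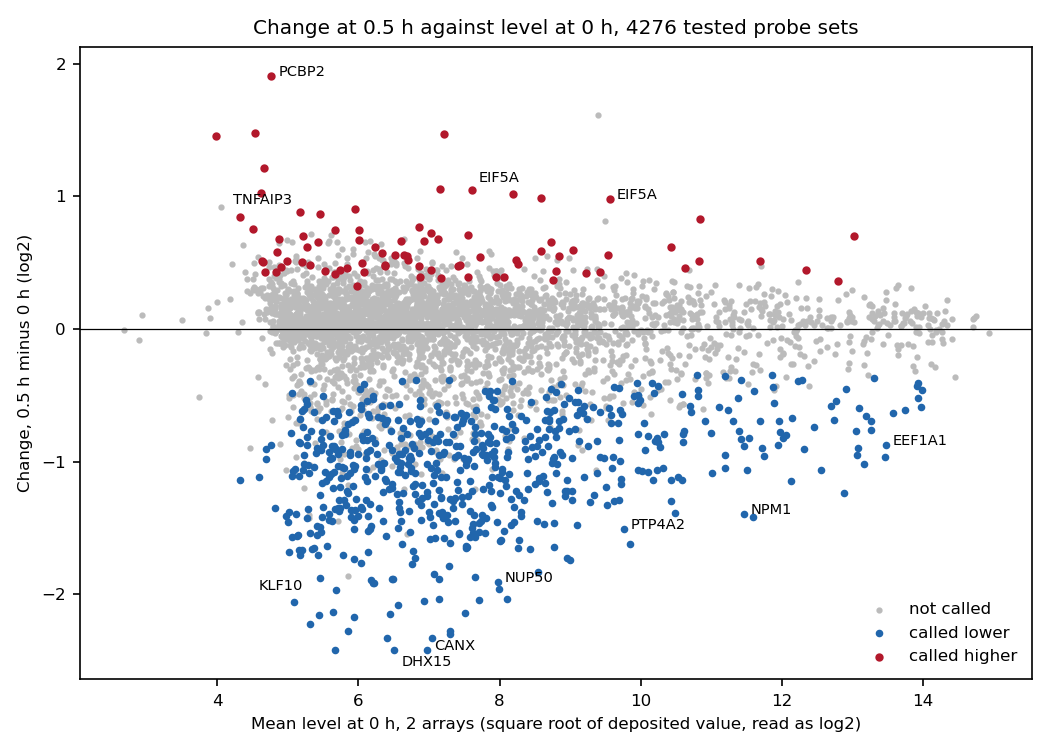
Each point is 1 of the 4276 tested probe sets, with its mean level on the 2 arrays of 0 h (log2) on the x axis and its change at 0.5 h (log2) on the y axis; blue points were called lower, red points higher and grey points not called. The 646 blue points reach down to -2.42 and lie at all levels above about 5, while the 82 red points stay under 2.

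Falls were called at every level of expression. Among probe sets with a 0 h mean under 5, 3.38% were called lower and 7.25% higher. In the bins above that, from 5 to the brightest transcripts, 12.9% to 19.2% were called lower and 1.19% to 2.07% higher. A probe set in the bin under 5 passed the filter only if some array after 0 h reached 5. That selection favours rises there, so the shares of this bin do not describe dim transcripts in general. Near the floor of the arrays the size of a change is less certain, and 157 of the called falls ended at a mean under 5. With all levels under 5 set to 5, 582 of the 646 falls and 75 of the 82 rises were still called.

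The calls rested unevenly on the 4 arrays. Without 0 h replicate 1, 128 probe sets were called, and without 0.5 h replicate 2, 147, against 482 without 0.5 h replicate 1 and 536 without 0 h replicate 2. Called in the full comparison and without each of the 4 arrays were 104 probe sets (2.43%), 99 lower (2.32%) and 5 higher (0.117%), and with equal array medians 337 (7.88%), 309 lower (7.23%) and 28 higher (0.655%). Under both scalings these were 99 (2.32%), 94 lower (2.20%) and 5 higher. The 5 rises were those of PCBP2, SNORA21, DNAJC7 and 2 probe sets of EIF5A. The sets of PCBP2 and SNORA21 stood under 5 on both 0 h arrays. They passed the filter only through later arrays, a selection that favours rises. With the 18S level as a covariate 9 probe sets were called, 8 lower and 1 higher, and 629 had an unadjusted p under 0.05 (14.7%) in place of 1269 (29.7%). All 646 falls kept a change below 0 in that fit, at a median of -0.76. They had been picked for falling on the same arrays, so their sign there is no separate check. Of the 260 called probe sets of the genes named in the text and their companions, 84 were called with no filter on low levels, 110 with the spike-in level as a covariate and 5 with the 18S level, among them those of HSPA4, CHEK1 and DHX15. Whether 18S RNA or spike-in level had a part in the changes was not tested beyond these fits.

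Genes read by several probe sets give a check of the probe reading, but not of the comparison, as their sets share the same arrays. Of 632 such genes, 70 (11.1%) had all their probe sets called lower and 2 (0.316%) all called higher, and 0 had calls in both directions. At least 1 probe set was called lower in 167 (26.4%) and higher in 32 (5.06%). With equal array medians 73 had all lower and 9 all higher, and 3 had calls in both directions. In 35 genes (5.54%) the probe sets lay over 1 apart.

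The genes whose probe sets all fell furthest code for proteins of several compartments. SON, a protein of nuclear speckles that supports splicing, was read by 2 probe sets. Its brighter set stood at 6.28 and 5.78 at 0 h and 4.33 and 4.20 at 0.5 h and fell by 1.76 (SE 0.30, adjusted p = 0.00831), and its other set fell by 2.28 (SE 0.32, adjusted p = 0.00485). RFC3, a subunit of the clamp loader of DNA replication, stood at 7.40 and 7.02 at 0 h and 5.71 and 5.55 at 0.5 h and fell by 1.58 (SE 0.27, adjusted p = 0.00828), and its second set, at -2.16, did as well. Both arrays of 0.5 h lay below both of 0 h for each of these sets, a pattern seen in 1344 of the tested probe sets (31.4%), with the reverse in 1246 (29.1%), so that the groups did not overlap in 60.6%. SON and RFC3 lost their calls on leaving out 0 h replicate 1 (adjusted p = 0.0728) and on leaving out 0.5 h replicate 2 (adjusted p = 0.0649). With levels under 5 set to 5, the change of SON was -1.03.

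TMX1, a thioredoxin-related protein of the endoplasmic reticulum membrane, stood at 7.38 and 7.48 at 0 h and 5.86 and 5.90 at 0.5 h and fell by 1.55 (SE 0.28, adjusted p = 0.00979), with its other set at -2.08. CD164, a sialomucin of blood cells, fell in all 3 probe sets (-2.04, -1.65 and -1.02), the brightest from 8.92 and 8.62 to 7.31 and 6.93. CANX, the lectin chaperone calnexin, fell in 3 of 3 (-2.42, -1.59 and -1.18). Further genes of this kind were SLC38A2, an amino acid transporter (-1.70 and -1.67), ANP32E, a chaperone of histone H2A.Z (-1.72 and -1.42), and G3BP2, a stress granule protein (-1.01 and -2.28). None of the 6 genes named was called on leaving out 0 h replicate 1 (adjusted p = 0.059 to 0.174) and on leaving out 0.5 h replicate 2 (adjusted p = 0.0543 to 0.162). SLC38A2 was no longer called on leaving out 0 h replicate 2 (adjusted p = 0.103). SLC38A2 and G3BP2 were no longer called on leaving out 0.5 h replicate 1 (adjusted p = 0.0552 to 0.115). Setting levels under 5 to 5 left a change of -0.43 for SLC38A2, and SLC38A2 was not called (adjusted p = 0.449).

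In other genes only 1 of the probe sets was called. DHX15, a helicase that takes the spliceosome apart, fell in its dimmer probe set from 6.89 and 6.12 to 4.09 and 4.07 (-2.42), level with CANX as the lowest changes of all, where its brighter set stood at 7.59 and 7.40 at 0 h and 6.50 and 6.53 at 0.5 h and changed by -0.98 (SE 0.30, adjusted p = 0.0591). HNRNPH1, a splicing regulator, fell by 1.41 in its dimmest set and changed by -0.32 and -0.57 in its other sets, which were not called. CHEK1, the checkpoint kinase, fell by 1.38 in 1 set and changed by -0.46 (SE 0.17, adjusted p = 0.108) in the other. BNIP3L, a mitophagy receptor, fell by 1.56 in a set that ended at 3.56 and 3.59, and its brighter set stood at 7.69 and 6.62 at 0 h and 6.82 and 7.28 at 0.5 h with a change of -0.11. These 4 genes are set side by side after their values were seen. DHX15, HNRNPH1, CHEK1 and BNIP3L held their calls when any 1 of the 4 arrays was left out. On levels floored at 5 the change was -1.50 and -0.13 for DHX15 and BNIP3L, and BNIP3L was not called (adjusted p = 0.66).

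**Figure D2:**
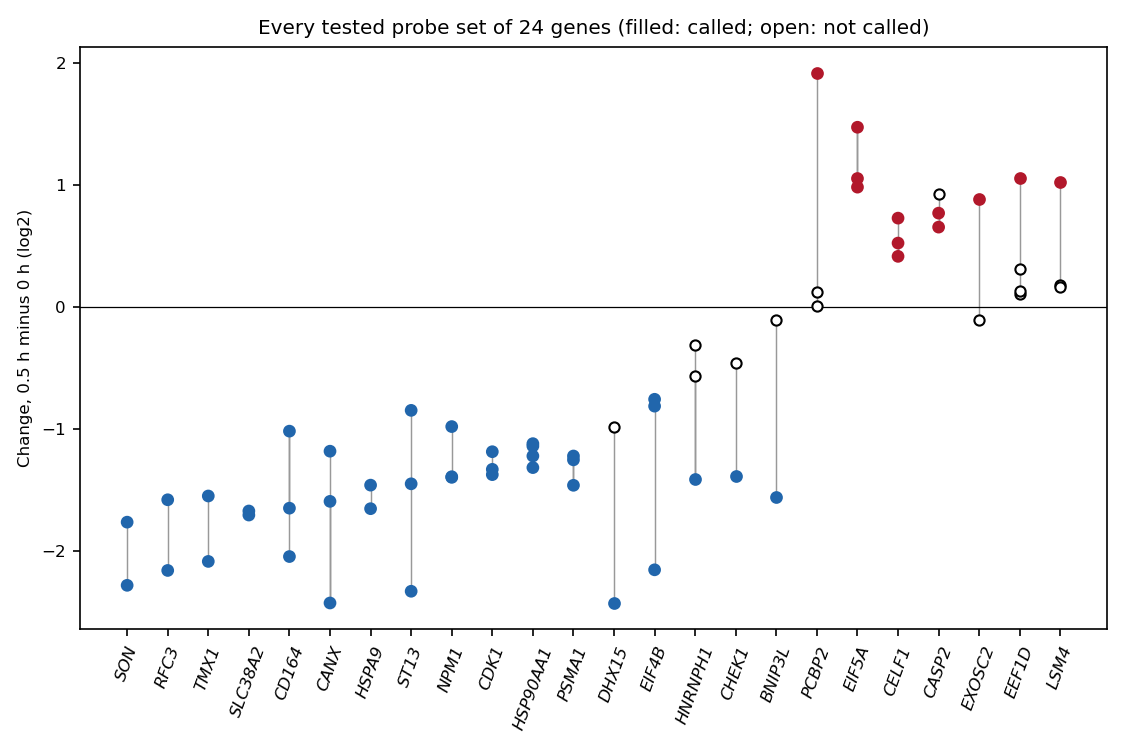
Each point is 1 tested probe set of the gene on the x axis, with its change at 0.5 h (log2) on the y axis; filled points were called and open points were not. The sets of SON, RFC3, CANX, NPM1, CDK1 and HSP90AA1 all lie below -0.9, those of DHX15, HNRNPH1, CHEK1, BNIP3L and PCBP2 spread from a called to an uncalled change, and the 3 sets of EIF5A and of CELF1 are all filled and above 0.

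The cytosolic and mitochondrial chaperones, which fold new proteins and hold damaged ones, held many of the falls. Of 26 measured heat shock proteins and cochaperones 10 were called lower and 1 higher, at a median change of -0.30 (-0.17 with equal array medians, where 10 were lower and 2 higher), beside 13.8% lower and a median of 0.03 over all genes. HSP90AA1, the inducible HSP90, stood at 10.37 and 9.97 at 0 h and 9.04 and 9.02 at 0.5 h and fell by 1.14 (SE 0.20, adjusted p = 0.0091), and its 3 other probe sets fell too (-1.12 to -1.32). HSP90AB1, the constitutive HSP90, stood at 11.46 and 11.15 at 0 h and 10.62 and 10.60 at 0.5 h and fell by 0.70 (SE 0.17, adjusted p = 0.029). No 0.5 h array of either gene came up to a 0 h array, a pattern shared by 31.4% of all tested probe sets. HSP90AA1 and HSP90AB1 missed the threshold on leaving out 0 h replicate 1 (adjusted p = 0.0733 to 0.191) and on leaving out 0.5 h replicate 2 (adjusted p = 0.0649 to 0.14). HSP90AB1 was no longer called on leaving out 0.5 h replicate 1 (adjusted p = 0.0975).

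The promoters of both HSP90 genes hold heat shock elements, the sites that heat shock factors read as inverted repeats of GAA. They are shown because the pair fell together. In RefSeq (GRCh38.p14), the stretch chr14:102087080-102087152 on the minus strand lies before 1 of 2 starts of HSP90AA1, and chr6:44247758-44247883 on the plus strand before 1 of 3 starts of HSP90AB1. Both are written 5′ to 3′ with the motif (GAA, TTC and GAA in a row, with any 2 bases between each), searched on both strands, in capitals, and each copy here lies on the strand opposite to the one printed.
HSP90AA1: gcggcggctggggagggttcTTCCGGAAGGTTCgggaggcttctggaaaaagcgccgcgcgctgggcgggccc
HSP90AB1: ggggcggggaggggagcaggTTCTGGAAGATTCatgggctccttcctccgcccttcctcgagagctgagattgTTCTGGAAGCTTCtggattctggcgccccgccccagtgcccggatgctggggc

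The copy in HSP90AA1 begins 88 bases before the start, and those in HSP90AB1 begin 165 and 112 bases before it. The motif occurred in 0.441% of all 35116 RefSeq promoter windows, each holding the 250 bases before a start. Among 2392 tested genes with a window 14 had it (0.585%), 6 of 324 called lower and 0 of 43 called higher. In the heat shock list 4 of 21 tested genes with a window had it, the pair above, HSPD1 and DNAJB6. HSPD1, the mitochondrial chaperonin, stood at 9.88 and 9.54 at 0 h and 8.73 and 8.70 at 0.5 h and fell by 1.00 (SE 0.23, adjusted p = 0.023), and DNAJB6, an HSP40 cochaperone, stood at 5.95 and 5.94 at 0 h and 6.33 and 5.97 at 0.5 h with a change of 0.20 (SE 0.13, adjusted p = 0.353). HSPD1 was no longer called on leaving out 0 h replicate 1 (adjusted p = 0.16) and on leaving out 0.5 h replicate 1 (adjusted p = 0.0839) and on leaving out 0.5 h replicate 2 (adjusted p = 0.12). A match is a description of the letters in the window and not a bound site.

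Of the HSP70 genes, HSPA9, HSPA4 and HSPA14 (-1.02) were called lower, among the 10 falls of the 26 measured genes. HSPA9 stood at 8.42 and 7.99 at 0 h and 6.81 and 6.69 at 0.5 h and fell by 1.46 (SE 0.19, adjusted p = 0.004). HSPA4, a nucleotide exchange factor of the HSP110 family, stood at 7.30 and 7.11 at 0 h and 5.71 and 5.86 at 0.5 h and fell by 1.42 (SE 0.11, adjusted p = 0.00133). Among the cochaperones, DNAJA1, an HSP40, fell by 1.26 (SE 0.26, adjusted p = 0.015), and BAG2, an inhibitor of the HSP70-linked ubiquitin ligase CHIP, fell by 1.01 (SE 0.12, adjusted p = 0.00376). ST13, which bridges HSP70 and HSP90, fell in all 3 probe sets (-0.85 in the brightest, -1.45 and -2.33 in the dimmer sets). Leaving out any 1 of the 4 arrays ended no call of HSPA9, HSPA4 and BAG2. The other 3 genes named lost their calls on leaving out 0 h replicate 1 (adjusted p = 0.116 to 0.245) and on leaving out 0.5 h replicate 1 (adjusted p = 0.0568 to 0.131) and on leaving out 0.5 h replicate 2 (adjusted p = 0.0921 to 0.22). HSPA14 and ST13 were no longer called on leaving out 0 h replicate 2 (adjusted p = 0.074 to 0.113).

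DNAJC7, a cochaperone that recycles clients between HSP70 and HSP90, was the 1 member called higher. It stood at 6.06 and 5.84 at 0 h and 6.91 and 6.81 at 0.5 h and rose by 0.91 (SE 0.14, adjusted p = 0.00568). Not called were HSPE1, the cofactor of HSPD1 (-0.35), and DNAJB1, a heat-inducible HSP40 (0.06). DNAJC7 held its call without any 1 of the 4 arrays.

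The CCT chaperonin, the ring that folds actin and tubulin, fell in 4 of its 7 measured ring subunits, at a median of -0.97 over the 7. The ring was set apart within its list after the values were seen, and 13.8% of all genes were called lower. CCT8 stood at 7.86 and 7.83 at 0 h and 6.89 and 6.46 at 0.5 h and fell by 1.18 (SE 0.21, adjusted p = 0.0095). CCT4 stood at 8.98 and 8.29 at 0 h and 7.14 and 7.19 at 0.5 h and fell by 1.47 (SE 0.28, adjusted p = 0.0107). CCT2 fell by 0.97 (SE 0.18, adjusted p = 0.00993) and CCT5 fell by 0.83 (SE 0.15, adjusted p = 0.00903). In each of these 4 subunits both 0.5 h arrays lay below both 0 h arrays, as in 31.4% of all tested probe sets. CCT6A (-1.06) and CCT3 (-0.36) were not called, and CCT7 was level, at 9.85 and 9.74 at 0 h and 9.86 and 9.68 at 0.5 h. With equal array medians CCT6A was called lower too, so that 5 of 7 were. Of the prefoldin subunits, which hand unfolded chains to CCT, 1 of 4 was called, PFDN4 (-0.50). None of the 5 genes named was called on leaving out 0 h replicate 1 (adjusted p = 0.0582 to 0.112) and on leaving out 0.5 h replicate 2 (adjusted p = 0.0649 to 0.226). PFDN4 was no longer called on leaving out 0 h replicate 2 (adjusted p = 0.155). CCT4 was no longer called on leaving out 0.5 h replicate 1 (adjusted p = 0.0508). With equal array medians, PFDN4 was not called (-0.37, adjusted p = 0.0691).

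**Figure D3:**
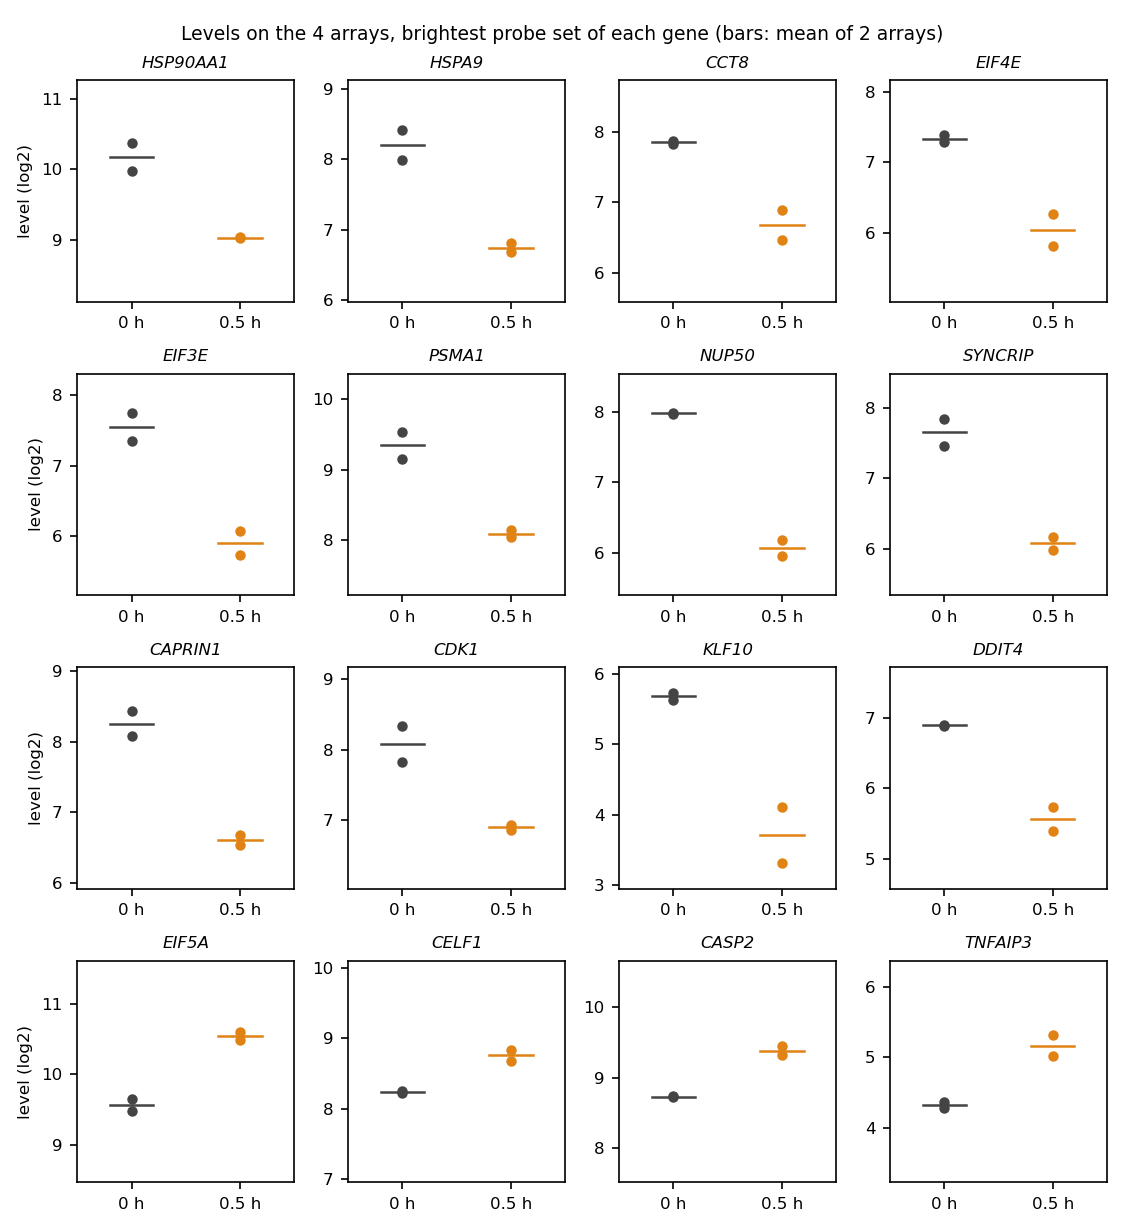
Each panel gives the level (log2) of the brightest probe set of a gene on the 2 arrays of 0 h (grey) and the 2 of 0.5 h (orange), with a bar at the mean of each pair; every y axis spans the same range. In 12 panels, from HSP90AA1 to DDIT4, both orange points lie below both grey points, and in the last 4 (EIF5A, CELF1, CASP2, TNFAIP3) both lie above.

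Translation initiation factors, which bring the ribosome to the start codon, held many falls as well. Of 34 measured factors 13 were called lower (38.2%) and 1 higher, beside 13.8% and 1.70% of all genes. Their median was -0.36 (14 lower and 1 higher, at -0.24, with equal array medians). EIF3E, a subunit of the eIF3 scaffold, stood at 7.74 and 7.35 at 0 h and 6.07 and 5.73 at 0.5 h and fell by 1.65 (SE 0.29, adjusted p = 0.00943). EIF4E, which binds the mRNA cap, stood at 7.39 and 7.29 at 0 h and 6.27 and 5.81 at 0.5 h and fell by 1.30 (SE 0.24, adjusted p = 0.00993). EIF4G2, a cap-independent relative of the eIF4G scaffold, stood at 8.95 and 8.96 at 0 h and 7.96 and 7.67 at 0.5 h and fell by 1.14 (SE 0.20, adjusted p = 0.00842). DENR, which acts in reinitiation and ribosome recycling, fell by 1.61 (SE 0.25, adjusted p = 0.00667). None of the 4 genes named was called on leaving out 0 h replicate 1 (adjusted p = 0.0642 to 0.0783) and on leaving out 0.5 h replicate 2 (adjusted p = 0.0526 to 0.0806).

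All 3 subunits of eIF2, the complex that carries the initiator tRNA, were called lower: EIF2S2 (-0.96), EIF2S1 (-0.69) and EIF2S3 (-0.61). Of 11 measured eIF3 subunits 4 were, namely EIF3E, EIF3H (-0.92), EIF3M (-0.89) and EIF3L (-0.79). Both complexes were set apart after the values were seen, and 13.8% of all genes were called lower. Other eIF3 subunits lay close to 0 or above it and were not called, among them EIF3B (0.06), EIF3F (0.21), EIF3G (0.15) and EIF3K (0.27). EIF4B, which aids the helicase eIF4A, fell in all 3 probe sets (-0.76 in the brightest, -0.81 and -2.15 in the others). EIF4E2, a cap-binding protein that can repress translation, was the 1 factor called higher (0.55). None of the 9 genes named was called on leaving out 0 h replicate 1 (adjusted p = 0.0782 to 0.229) and on leaving out 0.5 h replicate 2 (adjusted p = 0.0649 to 0.229). EIF2S1, EIF3M and EIF4E2 missed the threshold on leaving out 0 h replicate 2 (adjusted p = 0.0696 to 0.126). EIF2S1, EIF2S3 and EIF3M lost their calls on leaving out 0.5 h replicate 1 (adjusted p = 0.0565 to 0.0988).

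Elongation and termination gave 4 falls (26.7%, beside 13.8% of all genes) and 1 rise among 15 genes, at a median of -0.01. NACA, part of the complex that shields nascent chains, stood at 11.11 and 10.91 at 0 h and 9.93 and 9.93 at 0.5 h and fell by 1.08 (SE 0.20, adjusted p = 0.00993). ABCE1, the ATPase that splits ribosomes, fell by 1.41 (SE 0.25, adjusted p = 0.00956), and EEF1A1, the main elongation factor and one of the brightest transcripts on the arrays, fell by 0.46 from 14.00 and 13.98. The rise was that of EIF5A, described with the rising genes. Of 14 tRNA synthetases 3 were called lower (21.4%): IARS1 (-1.40), NARS1 (-1.32) and KARS1 (-0.85). NACA, ABCE1, EEF1A1, IARS1 and KARS1 were no longer called on leaving out 0 h replicate 1 (adjusted p = 0.0569 to 0.123). EEF1A1, NARS1 and KARS1 missed the threshold on leaving out 0 h replicate 2 (adjusted p = 0.0583 to 0.0701). ABCE1, EEF1A1 and NARS1 lost their calls on leaving out 0.5 h replicate 1 (adjusted p = 0.051 to 0.0844). NACA, EEF1A1, IARS1, NARS1 and KARS1 were no longer called on leaving out 0.5 h replicate 2 (adjusted p = 0.0572 to 0.135). EEF1A1 missed the threshold with equal array medians (-0.33, adjusted p = 0.0855). With levels under 5 set to 5, the change of ABCE1 was -0.15, and ABCE1 was not called (adjusted p = 0.535).

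Ribosomal proteins had falls at 17.0% of their measured genes, near the 13.8% of all genes, and a median at 0.02. Of 53 measured cytosolic ribosomal proteins 9 were called lower and 0 higher, and 5 lower and 2 higher with equal array medians, where the median was 0.15. Large-subunit proteins gave 7 of 32 and small-subunit proteins 2 of 20. RPL6 stood at 12.27 and 11.97 at 0 h and 11.03 and 10.92 at 0.5 h and fell by 1.15 (SE 0.18, adjusted p = 0.00611). RPL7 stood at 12.21 and 12.41 at 0 h and 11.40 and 11.42 at 0.5 h and fell by 0.90 (SE 0.19, adjusted p = 0.0155). RPS6, a substrate of S6 kinase, fell by 0.76 (SE 0.14, adjusted p = 0.00945) and RPS24 fell by 0.70 (SE 0.11, adjusted p = 0.00682). In mitochondrial ribosomal proteins 5 of 42 were lower, led by MRPL13 (-1.56) and MRPL3 (-1.45), and 1 was higher, MRPL57 (0.56). The other sets of MRPL57, at 0.15 and 0.67, were not called. MRPL3 held its call without any 1 of the 4 arrays. The other 6 genes named missed the threshold on leaving out 0 h replicate 1 (adjusted p = 0.0587 to 0.118) and on leaving out 0.5 h replicate 2 (adjusted p = 0.0543 to 0.113). RPL7 and MRPL13 lost their calls on leaving out 0 h replicate 2 (adjusted p = 0.051 to 0.0745). RPL7, MRPL13 and MRPL57 were no longer called on leaving out 0.5 h replicate 1 (adjusted p = 0.052 to 0.0737).

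Among 32 genes of ribosome biogenesis and the nucleolus 3 fell (9.375%, below the 13.8% of all genes) and 1 rose. NPM1, the nucleolar chaperone often mutated in leukaemia, stood at 11.66 and 11.27 at 0 h and 10.15 and 9.99 at 0.5 h and fell by 1.40 (SE 0.20, adjusted p = 0.00492), and its other sets fell as well (-1.39 and -0.98). UTP18, of the small-subunit processome, fell by 1.06 (SE 0.16, adjusted p = 0.00565), and NOLC1 fell by 0.75 (SE 0.15, adjusted p = 0.0147). NHP2, a protein of H/ACA particles and telomerase, rose by 0.52. NPM1 held its call without any 1 of the 4 arrays. The other 3 genes named missed the threshold on leaving out 0 h replicate 1 (adjusted p = 0.055 to 0.109). NOLC1 and NHP2 lost their calls on leaving out 0.5 h replicate 2 (adjusted p = 0.1 to 0.111).

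The proteasome, which degrades ubiquitin-tagged proteins, held falls in several of its parts. Of 39 measured genes 11 were called lower (28.2%, beside 13.8% of all genes) and 1 higher. Their median was -0.03 (11 lower, 2 higher and 0.10 with equal array medians). In the alpha ring, the gate of the core particle, 4 of 6 fell and 1 rose, while in the beta ring, which holds the active sites, 0 of 10 were called, at a median of 0.11. PSMA1 stood at 9.54 and 9.15 at 0 h and 8.04 and 8.14 at 0.5 h and fell by 1.25 (SE 0.16, adjusted p = 0.004), and its other sets fell as well (-1.22 and -1.46). PSMA2 stood at 9.85 and 9.41 at 0 h and 8.54 and 8.12 at 0.5 h and fell by 1.30 (SE 0.20, adjusted p = 0.0066). PSMA3 (-0.97) and PSMA4 (-1.23) fell as well, and PSMA7 stood at 10.59 and 10.67 at 0 h and 10.96 and 11.21 at 0.5 h and rose by 0.46 (SE 0.11, adjusted p = 0.028). The other set of PSMA7 changed by 0.22 and was not called (adjusted p = 0.491). The rings were set apart after the values were seen, and the difference between them was not tested. PSMA1 held its call without any 1 of the 4 arrays. The other 4 genes named were no longer called on leaving out 0 h replicate 1 (adjusted p = 0.0587 to 0.16) and on leaving out 0.5 h replicate 2 (adjusted p = 0.0567 to 0.171). PSMA3 and PSMA7 missed the threshold on leaving out 0 h replicate 2 (adjusted p = 0.0544 to 0.0665).

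In the regulatory particle, which unfolds substrates, 3 of 5 ATPases were called lower, PSMC2 (-0.95), PSMC6 (-0.87) and PSMC1 (-0.71), and 2 of 10 other subunits, PSMD14 and PSMD1 (-0.70). PSMD14, the deubiquitinase of the lid, stood at 7.32 and 6.96 at 0 h and 5.09 and 5.13 at 0.5 h and fell by 2.04 (SE 0.34, adjusted p = 0.0077), the deepest fall of the complex. Ubiquitin and SUMO conjugation had 6 falls among 37 genes (16.2%, near the 13.8% of all genes), at a median of -0.09. Among them were SKP1, an adaptor of cullin ligases, and the COP9 subunits COPS5 (-0.85) and COPS8 (-0.85). SKP1 stood at 11.56 and 11.30 at 0 h and 10.60 and 10.60 at 0.5 h (-0.83). PSMC6 held its call without any 1 of the 4 arrays. The other 7 genes named lost their calls on leaving out 0 h replicate 1 (adjusted p = 0.0699 to 0.197) and on leaving out 0.5 h replicate 2 (adjusted p = 0.058 to 0.199). PSMC2, PSMC1 and PSMD1 were no longer called on leaving out 0 h replicate 2 (adjusted p = 0.0574 to 0.0985). PSMC1, PSMD1 and COPS5 missed the threshold on leaving out 0.5 h replicate 1 (adjusted p = 0.0552 to 0.0933). Setting levels under 5 to 5 left a change of 0.00 for PSMC6, and PSMC6 was not called (adjusted p = 1). The other falls of the proteasome list were USP14 (-0.77), a deubiquitinase bound to the particle, and POMP (-0.41), the maturation factor of the core. POMP was not called with equal array medians (adjusted p = 0.124). Leaving out any 1 of the 4 arrays ended the call of POMP, and leaving out any but 0.5 h replicate 1 ended that of USP14.

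**Figure D4:**
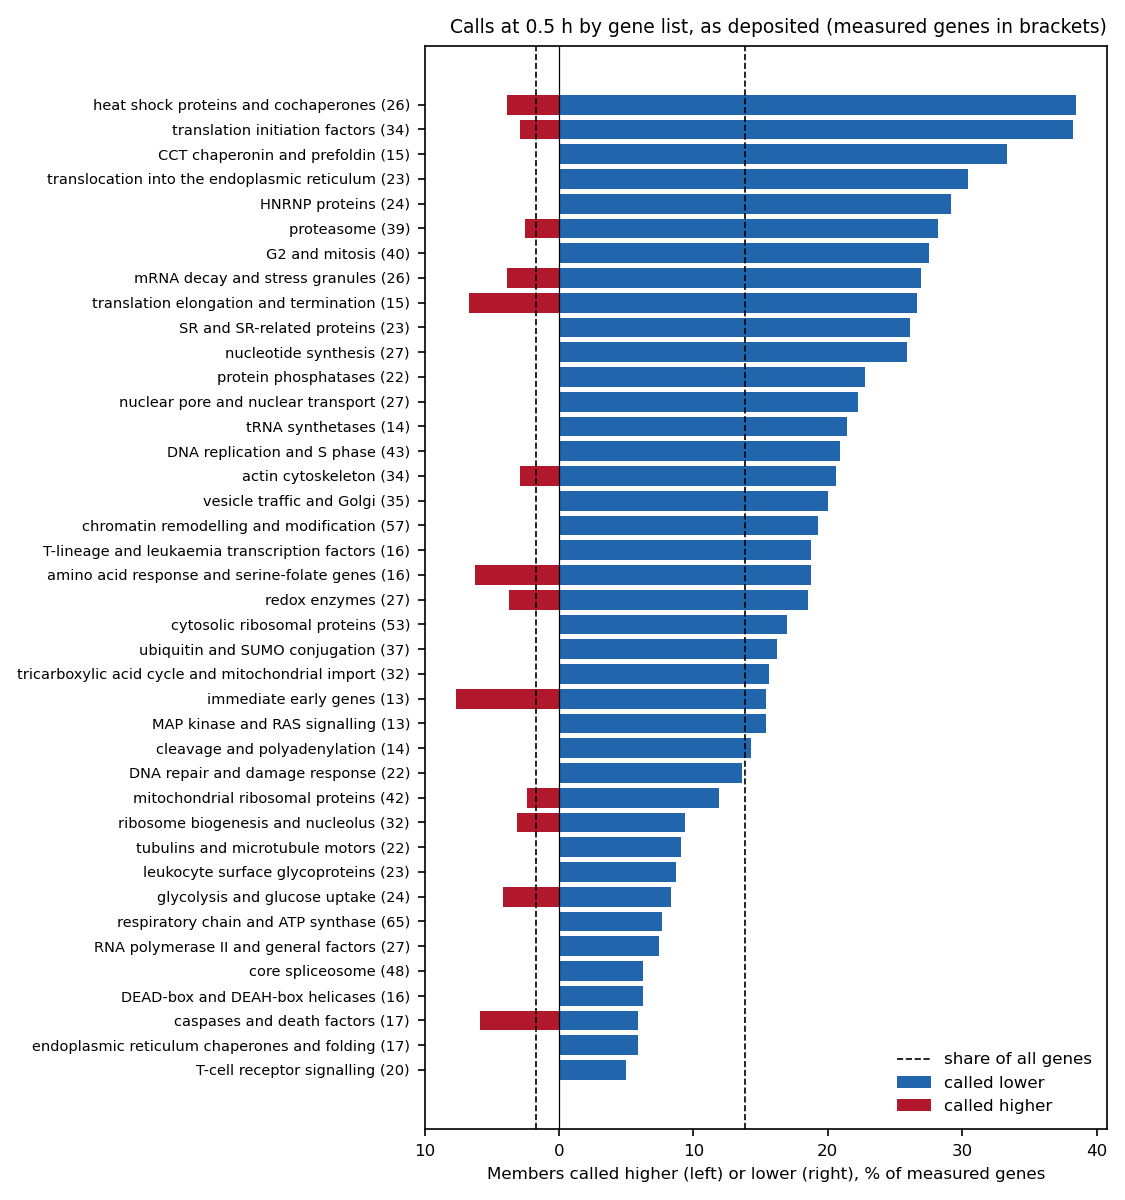
Bars give, for 40 gene lists with at least 13 measured genes, the percentage of measured genes called lower (blue, to the right) and higher (red, to the left) at 0.5 h as deposited; dashed lines mark the shares of all 2819 genes, 13.8% and 1.70%. Heat shock proteins, initiation factors, the CCT chaperonin and translocation into the endoplasmic reticulum reach over 30% lower, and core spliceosome, respiratory chain and T-cell receptor genes stay under 10%.

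Genes of the nuclear pore and nuclear transport had a median change of -0.49 over 27 genes, the lowest of the 57 function lists (-0.36 with equal array medians). Called lower were 6 (22.2%, beside 13.8% of all genes) and higher 0, or 11 and 1 with equal array medians. NUP50, a nucleoporin that helps importins release their cargo, stood at 7.99 and 7.96 at 0 h and 6.18 and 5.95 at 0.5 h and fell by 1.91 (SE 0.20, adjusted p = 0.00291). XPOT, the exportin of tRNA, stood at 5.63 and 5.10 at 0 h and 3.76 and 3.67 at 0.5 h and fell by 1.65 (SE 0.26, adjusted p = 0.0066). The import receptors TNPO3 (-0.74) and TNPO1 (-0.79) and the pore protein NUP43 (-0.63) were called too. Several large changes missed the threshold as deposited and were called with equal array medians, among them XPO1, the exportin of proteins, at -1.21 (SE 0.40, adjusted p = 0.0781), NUP205 at -1.43 (SE 0.43, adjusted p = 0.058) and SEH1L at -1.21 (SE 0.41, adjusted p = 0.0858). NUP62, a protein of the central channel, went the other way (0.50), called with equal array medians. NUP50 held its call without any 1 of the 4 arrays. The other 4 genes named lost their calls on leaving out 0 h replicate 1 (adjusted p = 0.0591 to 0.198) and on leaving out 0.5 h replicate 2 (adjusted p = 0.0568 to 0.252). TNPO1 was no longer called on leaving out 0 h replicate 2 (adjusted p = 0.13). TNPO3 and TNPO1 were no longer called on leaving out 0.5 h replicate 1 (adjusted p = 0.0654 to 0.0957). On levels floored at 5 the change was -0.37 for XPOT, and XPOT was not called (adjusted p = 0.161).

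Among measured genes, 29.2% of HNRNP and 26.1% of SR and SR-related proteins were called lower, beside 13.8% of all genes. In the core spliceosome the share was 6.25%. Of 24 measured HNRNP proteins, which coat nascent transcripts, 7 were called lower and 0 higher (median -0.09, and 0.03 with equal array medians, where 6 were lower and 1 higher). SYNCRIP, an HNRNP of translation and localization, stood at 7.84 and 7.46 at 0 h and 6.17 and 5.99 at 0.5 h and fell by 1.57 (SE 0.25, adjusted p = 0.00739). HNRNPA2B1 stood at 11.48 and 11.44 at 0 h and 10.63 and 10.52 at 0.5 h and fell by 0.88 (SE 0.18, adjusted p = 0.0146). Others were HNRNPR (-1.08), HNRNPU (-0.85) and HNRNPA1 (-0.78). Of 23 SR and SR-related proteins, which direct exon choice, 6 were called lower and 0 higher, at a median of -0.24. None of the 5 genes named was called on leaving out 0 h replicate 1 (adjusted p = 0.0675 to 0.171). HNRNPA2B1, HNRNPR and HNRNPU missed the threshold on leaving out 0 h replicate 2 (adjusted p = 0.0526 to 0.161). HNRNPR and HNRNPA1 lost their calls on leaving out 0.5 h replicate 1 (adjusted p = 0.0515 to 0.102). SYNCRIP, HNRNPA2B1, HNRNPR and HNRNPU were no longer called on leaving out 0.5 h replicate 2 (adjusted p = 0.0613 to 0.236). With levels under 5 set to 5, the change of HNRNPR was -1.08, and HNRNPR was not called (adjusted p = 0.056).

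In the SR group RBM39, the target of sulphonamide degraders, stood at 6.97 and 6.71 at 0 h and 5.88 and 5.20 at 0.5 h and fell by 1.30 (SE 0.23, adjusted p = 0.00956). SRSF10 fell by 1.13 (SE 0.15, adjusted p = 0.00447), TRA2B fell by 0.96 (SE 0.17, adjusted p = 0.00902) and SRSF7 fell by 0.83 (SE 0.16, adjusted p = 0.0116). Of 48 core spliceosome genes 3 were lower (6.25%, below the 13.8% of all genes) and 0 higher, at a median of 0.04. They were the branch point factor SF3B1 (-1.15), LSM3 (-0.55) and the Sm protein SNRPD1 (-0.46). Of 16 DEAD-box and DEAH-box helicases 1 was called, DDX3X, which unwinds structured leaders, at 8.12 and 7.88 at 0 h and 6.54 and 6.27 at 0.5 h. It fell by 1.60 (SE 0.21, adjusted p = 0.00429). The calls of SRSF10 and DDX3X held without any 1 of the 4 arrays. The other 6 genes named missed the threshold on leaving out 0 h replicate 1 (adjusted p = 0.0644 to 0.167) and on leaving out 0.5 h replicate 2 (adjusted p = 0.0589 to 0.18). SNRPD1 was no longer called on leaving out 0 h replicate 2 (adjusted p = 0.0825) and on leaving out 0.5 h replicate 1 (adjusted p = 0.0654). With equal array medians, SNRPD1 was not called (-0.33, adjusted p = 0.0708).

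Proteins of mRNA decay and stress granules had 7 falls (26.9%) and 1 rise among 26 genes, beside 13.8% lower and 1.70% higher over all genes. Their median was -0.19 (6 and 2, at -0.06, with equal array medians). CAPRIN1, a partner of G3BP in granule assembly, stood at 8.43 and 8.09 at 0 h and 6.54 and 6.68 at 0.5 h and fell by 1.65 (SE 0.25, adjusted p = 0.00572). G3BP1, the granule nucleator, stood at 8.55 and 8.44 at 0 h and 7.47 and 7.18 at 0.5 h and fell by 1.17 (SE 0.18, adjusted p = 0.00624). CELF2, which regulates splicing and mRNA stability in T cells, stood at 7.12 and 6.95 at 0 h and 4.83 and 4.59 at 0.5 h and fell by 2.33 (SE 0.36, adjusted p = 0.00611). DCP2, the decapping enzyme, fell by 2.23 (SE 0.43, adjusted p = 0.0112) to 3.12 and 3.05, and EXOSC8, of the exosome ring, fell by 1.35 (SE 0.37, adjusted p = 0.0411). CELF1, the rising member, is described below with the other rises. None of the 5 genes named was called on leaving out 0 h replicate 1 (adjusted p = 0.0582 to 0.201). DCP2 and EXOSC8 lost their calls on leaving out 0 h replicate 2 (adjusted p = 0.0506 to 0.11). EXOSC8 was no longer called on leaving out 0.5 h replicate 1 (adjusted p = 0.131). G3BP1, CELF2, DCP2 and EXOSC8 were no longer called on leaving out 0.5 h replicate 2 (adjusted p = 0.0556 to 0.174). Setting levels under 5 to 5 left a change of -0.31 for DCP2.

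In the secretory pathway some genes of entry into the endoplasmic reticulum and of vesicle traffic were called lower, and most were not called. Of 23 genes of translocation 7 were called lower (30.4%, beside 13.8% of all genes) and 0 higher. Their median was -0.10 (0.03 with equal array medians, with 7 lower and 2 higher). TRAM1 stood at 8.28 and 7.92 at 0 h and 6.15 and 5.97 at 0.5 h and fell by 2.04 (SE 0.28, adjusted p = 0.00447). SRP9, of the signal recognition particle, stood at 10.62 and 10.56 at 0 h and 9.58 and 9.32 at 0.5 h and fell by 1.14 (SE 0.15, adjusted p = 0.00401). SPCS3, of the signal peptidase, stood at 7.34 and 6.94 at 0 h and 5.68 and 5.82 at 0.5 h and fell by 1.39 (SE 0.17, adjusted p = 0.00376). SSR1, of the translocon-associated complex, fell by 1.05. Of 17 chaperones inside the endoplasmic reticulum only CANX was called (5.88%), at a list median of 0.01. Among 35 genes of vesicle traffic 7 were lower and 0 higher, at a median of -0.02 (9 and 4, at 0.11, with equal array medians), led by the clathrin heavy chain CLTC (-1.89), with the sorting nexin SNX5 (-1.18), the SNARE BET1 (-1.08) and the GTPase RAB1A (-0.96). CLTA, a clathrin light chain, stood at 10.19 and 10.17 at 0 h and 10.24 and 10.19 at 0.5 h and was not called. Calls that held without any 1 of the 4 arrays were those of TRAM1, SRP9, SPCS3, SNX5, BET1 and RAB1A. SSR1 and CLTC missed the threshold on leaving out 0 h replicate 1 (adjusted p = 0.0644 to 0.0699). CLTC was no longer called on leaving out 0.5 h replicate 2 (adjusted p = 0.0589). On levels floored at 5 the change was -0.52 for BET1.

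Mitochondrial energy genes were mostly level. Of 65 genes of the respiratory chain and ATP synthase 5 were called lower and 0 higher, at a median of 0.08, and the balance turned with the scaling, as 2 were lower and 6 higher with equal array medians (median 0.21). ATP5PB, of the stator of ATP synthase, stood at 10.20 and 10.02 at 0 h and 9.06 and 8.99 at 0.5 h and fell by 1.08 (SE 0.14, adjusted p = 0.00429). CYCS, cytochrome c, stood at 10.23 and 10.23 at 0 h and 9.28 and 9.05 at 0.5 h and fell by 1.07 (SE 0.18, adjusted p = 0.00807). Of 32 genes listed for the tricarboxylic acid cycle and mitochondrial import 5 were lower (15.6%, near the 13.8% of all genes). Among them were DLD (-1.17), SUCLG2 (-0.98), IDH3A (-0.90) and IDH1 (-1.70), whose enzyme is not mitochondrial. In glycolysis 2 of 24 fell, LDHB (-0.95) and LDHA (-0.58), the subunits of lactate dehydrogenase, and 1 rose, TXNIP. Of 27 redox enzymes 5 fell, with the mitochondrial peroxiredoxin PRDX3 (-1.12) and catalase CAT (-1.07) first, and TXNIP rose. ATP5PB, IDH1 and LDHB held their calls when any 1 of the 4 arrays was left out. CYCS, DLD, SUCLG2, LDHA, PRDX3 and CAT lost their calls on leaving out 0 h replicate 1 (adjusted p = 0.0521 to 0.16). DLD was no longer called on leaving out 0 h replicate 2 (adjusted p = 0.127). DLD and CAT were no longer called on leaving out 0.5 h replicate 1 (adjusted p = 0.0595 to 0.0834). CYCS, DLD, IDH3A, LDHA, PRDX3 and CAT missed the threshold on leaving out 0.5 h replicate 2 (adjusted p = 0.0504 to 0.194). With levels under 5 set to 5, the change of IDH1 was -0.18, and IDH1 was not called (adjusted p = 0.172).

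Calls in the cell cycle lists were falls as deposited, and some were rises with equal array medians. Of 43 genes of DNA replication 9 were called lower (20.9%, beside 13.8% of all genes), at a median of 0.02 (8 lower and 3 higher, at 0.15, with equal array medians). POLE2, a subunit of polymerase epsilon, stood at 5.77 and 5.12 at 0 h and 3.93 and 3.98 at 0.5 h and fell by 1.49 (SE 0.19, adjusted p = 0.004). GMNN, geminin, the inhibitor of origin licensing, fell by 1.14 (SE 0.19, adjusted p = 0.00807). NASP, a histone chaperone, fell by 0.79 (SE 0.13, adjusted p = 0.00751), and RPA1, of the single-strand binding complex, fell by 0.71 (SE 0.13, adjusted p = 0.0101). Of 40 genes of G2 and mitosis 11 were lower (27.5%), at a median of -0.19 (12 lower and 1 higher, at -0.06, with equal array medians). POLE2 held its call without any 1 of the 4 arrays. GMNN and NASP lost their calls on leaving out 0 h replicate 1 (adjusted p = 0.0657 to 0.0675). RPA1 was no longer called on leaving out 0 h replicate 2 (adjusted p = 0.0504) and on leaving out 0.5 h replicate 1 (adjusted p = 0.0515). The other 3 genes named were no longer called on leaving out 0.5 h replicate 2 (adjusted p = 0.058 to 0.0649). Setting levels under 5 to 5 left a change of -0.45 for POLE2, and POLE2 was not called (adjusted p = 0.148).

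CDK1, the mitotic kinase, stood at 8.34 and 7.83 at 0 h and 6.86 and 6.94 at 0.5 h and fell by 1.19 (SE 0.18, adjusted p = 0.00616), and its other sets fell as well (-1.33 and -1.37). CCNA2, cyclin A2, stood at 7.85 and 7.64 at 0 h and 6.58 and 6.10 at 0.5 h and fell by 1.41 (SE 0.22, adjusted p = 0.00688). PBK, a mitotic kinase, fell by 1.73 (SE 0.31, adjusted p = 0.00979), and RAD21, the cleaved subunit of cohesin, fell by 1.29 (SE 0.27, adjusted p = 0.0156). Of 27 enzymes of nucleotide synthesis 7 fell (25.9%, beside 13.8% of all genes). They included CMPK1, which phosphorylates UMP and CMP, at 7.21 and 7.38 at 0 h and 5.37 and 4.62 at 0.5 h (-2.30). Others were DCK, which activates nucleoside drugs (-1.28), and PRPS2 and PAICS of purine synthesis (-1.12 and -1.13). Leaving out any 1 of the 4 arrays ended no call of CDK1 and PRPS2. The other 6 genes named missed the threshold on leaving out 0 h replicate 1 (adjusted p = 0.0642 to 0.11) and on leaving out 0.5 h replicate 2 (adjusted p = 0.0576 to 0.113). RAD21 was no longer called on leaving out 0 h replicate 2 (adjusted p = 0.0506). DCK was no longer called on leaving out 0.5 h replicate 1 (adjusted p = 0.0606). On levels floored at 5 the change was -0.94 for PBK.

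Chromatin genes had 11 falls and 0 rises among 57, at a median of -0.14 (13 and 3, at -0.01, with equal array medians). The share lower was 19.3%, beside 13.8% of all genes. EZH2, the methyltransferase of Polycomb, stood at 6.74 and 6.47 at 0 h and 5.23 and 5.09 at 0.5 h and fell by 1.45 (SE 0.34, adjusted p = 0.0238). RBBP7, a histone-binding subunit of several complexes, fell by 0.98 (SE 0.17, adjusted p = 0.00892), SUPT16H, of the FACT complex, fell by 1.05 (SE 0.18, adjusted p = 0.00892), and HDAC2 fell by 1.03 (SE 0.23, adjusted p = 0.0205). Histone genes themselves gave 0 calls among 10. Of 22 protein phosphatases 5 were lower and 0 higher, at a median of -0.23, with PTPN11 (SHP2, a positive regulator of RAS) at 8.01 and 7.30 at 0 h and 5.84 and 5.72 at 0.5 h (-1.87), the PP2A catalytic subunit PPP2CA (-1.12) and PPM1B (-1.53). The actin cytoskeleton had 7 falls and 1 rise among 34: the capping protein CAPZA1 (-1.50), SEPTIN2 (-1.89) and the ARP2/3 subunits ARPC3 (-1.22) and ARPC5 (-0.95) fell, and cofilin, CFL1, rose by 0.36 from 12.86 and 12.73. The calls of PPM1B, CAPZA1 and ARPC5 held without any 1 of the 4 arrays. The other 9 genes named lost their calls on leaving out 0 h replicate 1 (adjusted p = 0.0642 to 0.153). EZH2, HDAC2, ARPC3 and CFL1 were no longer called on leaving out 0 h replicate 2 (adjusted p = 0.0642 to 0.13). EZH2, HDAC2, PTPN11 and CFL1 missed the threshold on leaving out 0.5 h replicate 1 (adjusted p = 0.0552 to 0.106). EZH2, SUPT16H, HDAC2, PTPN11, PPP2CA, SEPTIN2, ARPC3 and CFL1 lost their calls on leaving out 0.5 h replicate 2 (adjusted p = 0.0589 to 0.142). With levels under 5 set to 5, the change of PPM1B and SEPTIN2 was -0.46 and -1.18, and PPM1B was not called (adjusted p = 0.0959).

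T-cell receptor signalling gave 1 call among 20 genes, the fall of PTPN11 (5.00%, beside 13.8% of all genes called lower), at a median of 0.07. TRBC1, the constant region of the receptor's beta chain, stood at 14.18 and 14.04 at 0 h and 14.12 and 14.27 at 0.5 h. Of 16 T-lineage and leukaemia transcription factors 3 were lower (18.75%) and 0 higher, at a median of -0.30 (5 and 0, at -0.17, with equal array medians). RBPJ, the DNA-binding partner of NOTCH, stood at 4.61 and 4.58 at 0 h and 3.52 and 3.45 at 0.5 h and fell by 1.12 (SE 0.10, adjusted p = 0.00198), a change wholly below a level of 5. HES1, a target of NOTCH, stood at 7.36 and 7.34 at 0 h and 6.63 and 6.75 at 0.5 h and fell by 0.66 (SE 0.09, adjusted p = 0.0051), and its dimmer set changed by -0.47 and was not called. CBFB, the partner of RUNX1, fell by 0.81 (SE 0.17, adjusted p = 0.0169). MYB, at -1.22 (SE 0.41, adjusted p = 0.085), was called with equal array medians alone. Calls that held without any 1 of the 4 arrays were those of RBPJ and HES1. CBFB was no longer called on leaving out 0 h replicate 1 (adjusted p = 0.125) and on leaving out 0.5 h replicate 1 (adjusted p = 0.0582) and on leaving out 0.5 h replicate 2 (adjusted p = 0.107). Setting levels under 5 to 5 left a change of 0.00 for RBPJ, and RBPJ was not called (adjusted p = 1).

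The rising genes were fewer and were often carried by 1 probe set. EIF5A, a hypusine-bearing factor that helps ribosomes past difficult peptide bonds, rose in all 3 of its sets. They stood at 9.65 and 9.47 at 0 h and 10.49 and 10.60 at 0.5 h in the brightest, 7.61 and 7.61 at 0 h and 8.56 and 8.76 at 0.5 h in the next and 7.12 and 7.30 at 0 h and 8.60 and 8.76 at 0.5 h in the dimmest. The brightest rose by 0.98 (SE 0.10, adjusted p = 0.00291) and the next rose by 1.05 (SE 0.12, adjusted p = 0.0037), and both held when any 1 array was left out, while the dimmest, at 1.47, was not called without 0 h replicate 1, 0 h replicate 2, 0.5 h replicate 1 or 0.5 h replicate 2 (adjusted p = 0.0563 to 0.118). CELF1, a regulator of mRNA decay and splicing, was the other gene with all sets called: its brightest stood at 8.24 and 8.22 at 0 h and 8.68 and 8.83 at 0.5 h and rose by 0.52 (SE 0.14, adjusted p = 0.039), with the others at 0.73 and 0.41. CELF2 fell over the same 0.5 h, as given above. CELF1 was no longer called on leaving out 0 h replicate 1 (adjusted p = 0.161) and on leaving out 0 h replicate 2 (adjusted p = 0.127) and on leaving out 0.5 h replicate 1 (adjusted p = 0.0814) and on leaving out 0.5 h replicate 2 (adjusted p = 0.209).

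PCBP2, an RNA-binding protein of the HNRNP K family, had the highest rise in its dimmest set, from 4.64 and 4.89 to 6.67 and 6.68 (1.91, SE 0.14, adjusted p = 0.00133). Its bright set stood at 10.70 and 10.49 at 0 h and 10.67 and 10.54 at 0.5 h, with a change of 0.01. The same split held for LSM4 (1.03 in a dim set, 0.17 in the brightest), EEF1D (1.06 and 0.31), EXOSC2 (0.88 and -0.11), the unfoldase VCP (0.75 and 0.15) and RPS10 (0.62 and -0.07). CASP2, an initiator caspase of the DNA damage response, stood at 8.74 and 8.73 at 0 h and 9.45 and 9.32 at 0.5 h and rose by 0.65 (SE 0.16, adjusted p = 0.0275), with a second set at 0.77 and one more, uncalled, at 0.92. SNORA21, a small nucleolar RNA that lies in a host gene, rose by 1.46 from 4.21 and 3.76. PCBP2 and SNORA21 held their calls when any 1 of the 4 arrays was left out, but their sets passed the filter through arrays after 0 h only. The other 6 genes named were no longer called on leaving out 0 h replicate 1 (adjusted p = 0.0675 to 0.132). CASP2 was no longer called on leaving out 0 h replicate 2 (adjusted p = 0.0948). CASP2, LSM4 and EEF1D missed the threshold on leaving out 0.5 h replicate 1 (adjusted p = 0.0545 to 0.121). CASP2, LSM4, EEF1D, EXOSC2 and RPS10 lost their calls on leaving out 0.5 h replicate 2 (adjusted p = 0.0638 to 0.102). On levels floored at 5 the change was 0.45 and 0.64 for SNORA21 and LSM4, and SNORA21 was not called (adjusted p = 0.0897).

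TXNIP, which binds thioredoxin and restrains glucose uptake, stood at 5.53 and 5.82 at 0 h and 6.75 and 6.09 at 0.5 h and rose by 0.75 (SE 0.21, adjusted p = 0.0466). The other sets of TXNIP and of UCP2, at 0.60 and 0.21, were not called (adjusted p = 0.323 and 0.37). UCP2, a carrier of the inner mitochondrial membrane, rose by 0.59 (SE 0.13, adjusted p = 0.0174), IFI6, an interferon-induced protein, rose by 0.66 (SE 0.18, adjusted p = 0.0376), and TCF3, the E protein of lymphoid development, rose by 0.59 (SE 0.17, adjusted p = 0.0493), while its 6 other sets, at 0.03 to 0.34, were not called. With equal array medians the genes with all sets called higher also included CASP2, BTG1 (an antiproliferative gene, at 0.31 and 0.57 as deposited), the bromodomain protein BRD2 (0.48 and 0.35) and CIAPIN1 (0.40 and 0.56). As deposited, no set of BTG1, BRD2 or CIAPIN1 was called. None of the 4 genes named was called on leaving out 0 h replicate 1 (adjusted p = 0.0981 to 0.26). TXNIP, UCP2 and TCF3 were no longer called on leaving out 0 h replicate 2 (adjusted p = 0.066 to 0.103). TXNIP and IFI6 missed the threshold on leaving out 0.5 h replicate 1 (adjusted p = 0.132 to 0.185). UCP2, IFI6 and TCF3 lost their calls on leaving out 0.5 h replicate 2 (adjusted p = 0.12 to 0.272).

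Immediate early genes, the usual early reporters of receptor signalling, were mostly not measurable or not called at 0.5 h. Of 47 listed genes 45 were on the array, 33 of them below 5 on all 4 arrays. Among the 13 tested, 2 were called lower (15.4%) and 1 higher, beside 13.8% and 1.70% of all genes. Their median was 0.07. With equal array medians 2 were called lower and 2 higher, BTG1 among the rises. FOS stood at 2.31 and 2.31 at 0 h and 2.31 and 2.33 at 0.5 h, and FOSB at 2.40 and 2.40 against 2.41 and 2.42. The brighter EGR1 set stood at 2.36 and 2.34 against 2.75 and 2.49. These levels lie among those of unexpressed genes, where the array shows little, and the probe sets were not tested. IER2, a nuclear factor induced by serum, stood at 6.81 and 7.46 at 0 h and 7.61 and 7.45 at 0.5 h with a change of 0.40 (SE 0.26, adjusted p = 0.371), its 0.5 h arrays overlapping those of 0 h. MYC stood at 10.44 and 10.33 at 0 h and 10.28 and 10.13 at 0.5 h, a change of -0.18 (SE 0.11, adjusted p = 0.323), and JUND at 0.20 and NFKBIA at -0.15 were not called either.

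TNFAIP3 was the 1 gene of that list called higher as deposited. It encodes A20, the ubiquitin-editing enzyme that limits NF-kappa B signalling, and stood at 4.37 and 4.28 at 0 h and 5.32 and 5.02 at 0.5 h. It rose by 0.84 (SE 0.14, adjusted p = 0.00751), and it was the 1 call among 6 measured genes of NF-kappa B signalling. The probe set reached the filter level on the 0.5 h arrays only, and such a selection favours a rise at 0.5 h. Another probe set of TNFAIP3, not tested, showed no such rise, at 3.53 and 4.17 at 0 h and 3.91 and 3.18 at 0.5 h. The promoter of TNFAIP3 is shown because it holds a pair of kappa B matches side by side. The stretch chr6:137867172-137867253 (plus strand, GRCh38.p14, from RefSeq) lies just before its 1 listed start, with the motif (GGG, any 3 bases, TTCC), searched on both strands, in capitals; each copy lies on the opposite strand.
TNFAIP3: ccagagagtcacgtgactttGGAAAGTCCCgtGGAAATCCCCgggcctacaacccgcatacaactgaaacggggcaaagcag

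The copies begin 67 and 55 bases before the start, and this motif was found in 5.67% of all windows, in 8.65% of tested genes with a window and in 5 of 43 genes called higher. KLF10, a Krüppel-like factor induced early by TGF beta, went the opposite way, from 5.63 and 5.73 to 3.31 and 4.10, and fell by 1.97 (SE 0.22, adjusted p = 0.00365). MCL1, the short-lived anti-apoptotic BCL2 relative, stood at 7.26 and 7.21 at 0 h and 6.66 and 6.52 at 0.5 h and fell by 0.64 (SE 0.15, adjusted p = 0.0235). It was the 1 call among 11 BCL2 family genes (9.09%, beside 13.8% of all genes called lower). KLF10 held its call without any 1 of the 4 arrays. TNFAIP3 and MCL1 were no longer called on leaving out 0 h replicate 1 (adjusted p = 0.0541 to 0.131). MCL1 was no longer called on leaving out 0 h replicate 2 (adjusted p = 0.0731) and on leaving out 0.5 h replicate 1 (adjusted p = 0.0579) and on leaving out 0.5 h replicate 2 (adjusted p = 0.143). With levels under 5 set to 5, the change of TNFAIP3 and KLF10 was 0.17 and -0.68, and TNFAIP3 was not called (adjusted p = 0.332).

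CD47, the antigen, passed the test in neither tested probe set. Its brightest probe set stood at 8.98 and 8.94 at 0 h and 9.14 and 8.87 at 0.5 h, a change of 0.05 (SE 0.13, adjusted p = 0.877), and the next at 8.75 and 8.43 at 0 h and 8.35 and 8.14 at 0.5 h, a change of -0.34 (SE 0.16, adjusted p = 0.19). The arrays overlap in the brightest set; in the next the 0.5 h arrays lie below those of 0 h, by a difference that missed the threshold. Among 9 measured genes of CD47 and its partners 1 was called, a fall (11.1%, near the 13.8% of all genes called lower). That gene was GNAI3, an inhibitory G protein alpha subunit, at 6.99 and 6.57 at 0 h and 5.56 and 4.65 at 0.5 h. It fell by 1.67 (SE 0.34, adjusted p = 0.0146), and its other set changed by -0.78 (SE 0.28, adjusted p = 0.102). BNIP3, a mitochondrial protein that has been reported to bind CD47, stood at 4.88 and 4.47 at 0 h and 4.47 and 4.05 at 0.5 h, below the level of 5 on all 4 arrays. ITGB1, another listed partner, was not tested, and its brightest set stood at 5.32 and 4.92 at 0 h and 3.89 and 3.32 at 0.5 h. GNAI3 was no longer called on leaving out 0 h replicate 1 (adjusted p = 0.111) and on leaving out 0.5 h replicate 2 (adjusted p = 0.0953).

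Signalling and stress lists held scattered calls. Called lower were 15.4% of MAP kinase and RAS genes and 13.6% of DNA repair genes, near the 13.8% of all genes. For leukocyte surface proteins the share was 8.70%, and for the amino acid response and serine pathway 18.75%. Of 13 MAP kinase and RAS genes 2 were lower, the 14-3-3 proteins YWHAQ (-0.67) and YWHAZ (-0.41); with equal array medians 1 was lower and 2 higher. Of 22 genes of DNA repair 3 were lower, with topoisomerase TOP1 (-1.34), the Ku subunit XRCC5 (-1.28) and RAD51C (-0.93). Of 23 leukocyte surface proteins 2 were lower, CD164 and the transferrin receptor TFRC (-1.11). Of 16 genes of the amino acid response and serine pathway 3 were lower (SLC38A2, DDIT4 and MTHFD1 (-1.02)) and 1 higher, SLC3A2, the shared heavy chain of amino acid exchangers (0.47). DDIT4 held its call without any 1 of the 4 arrays. The other 10 genes named missed the threshold on leaving out 0 h replicate 1 (adjusted p = 0.0587 to 0.18). YWHAZ, TOP1, SLC38A2 and SLC3A2 lost their calls on leaving out 0 h replicate 2 (adjusted p = 0.0701 to 0.133). TOP1, XRCC5, SLC38A2 and SLC3A2 were no longer called on leaving out 0.5 h replicate 1 (adjusted p = 0.0611 to 0.129). YWHAQ, YWHAZ, TOP1, XRCC5, CD164, TFRC, SLC38A2, MTHFD1 and SLC3A2 missed the threshold on leaving out 0.5 h replicate 2 (adjusted p = 0.0557 to 0.21). YWHAZ missed the threshold with equal array medians (-0.28, adjusted p = 0.136). Setting levels under 5 to 5 left a change of -0.43 for SLC38A2, and SLC38A2 was not called (adjusted p = 0.449).

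Among the shorter lists, interferon-stimulated genes (10 measured), polyamine synthesis (10), the MYC network (12), iron handling (9), lipid and phosphoinositide enzymes (10) and the ID and E proteins (5) each had 1 gene called lower and 1 higher. The hypoxia response (10) and PI3 kinase, AKT and mTOR signalling (11) each had 2 lower and 0 higher, DDIT4 in both, and the small nucleolar RNA list (3) had 1 higher, SNORA21.

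Lists with no call as deposited, beside 15.5% of all genes called, were the histones (10 measured genes), the genes of cholesterol and fatty acid synthesis (11), the p53 targets (7), and the sodium, potassium and calcium pumps (3). For each of these, the limma counts with equal array medians were 1 higher for histones, 0 for cholesterol and fatty acid synthesis, 1 lower for p53 targets and 0 for the pumps. In all, 29 of 57 function lists had a median change below 0, and 16 of 57 with equal array medians. At least 3 members were called lower in 29 lists.

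The step from 0.5 h to 1 h, which tests whether the changes at these times differ, brought few calls. The 1 h arrays gave 2 calls against 0.5 h among 4276 probe sets (0.0468%), 1 of them a rise and 1 a fall, and 554 had an unadjusted p under 0.05. ID1, which keeps E proteins from binding DNA, stood at 5.93 and 5.93 at 0 h and 6.06 and 5.98 at 0.5 h and at 8.30 and 8.23 at 1 h, a rise of 2.25 after 0.5 h (adjusted p = 3.21e-05). ATP1B3, the beta 3 subunit of the sodium pump, stood at 8.59 and 8.73 at 0 h and 8.52 and 8.52 at 0.5 h and at 7.64 and 7.62 at 1 h, a fall by 0.89 (adjusted p = 0.0453). Both genes were level from 0 h to 0.5 h, with changes of 0.09 and -0.14. The call of ID1 held without any 1 of the 4 arrays of 0.5 h and 1 h (adjusted p = 0.00107 to 0.00145). That of ATP1B3 was lost without 0.5 h replicate 1 (adjusted p = 0.304), 0.5 h replicate 2 (0.2), 1 h replicate 1 (0.0855) and 1 h replicate 2 (0.241), while its change stayed between -0.90 and -0.88.

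**Figure D5:**
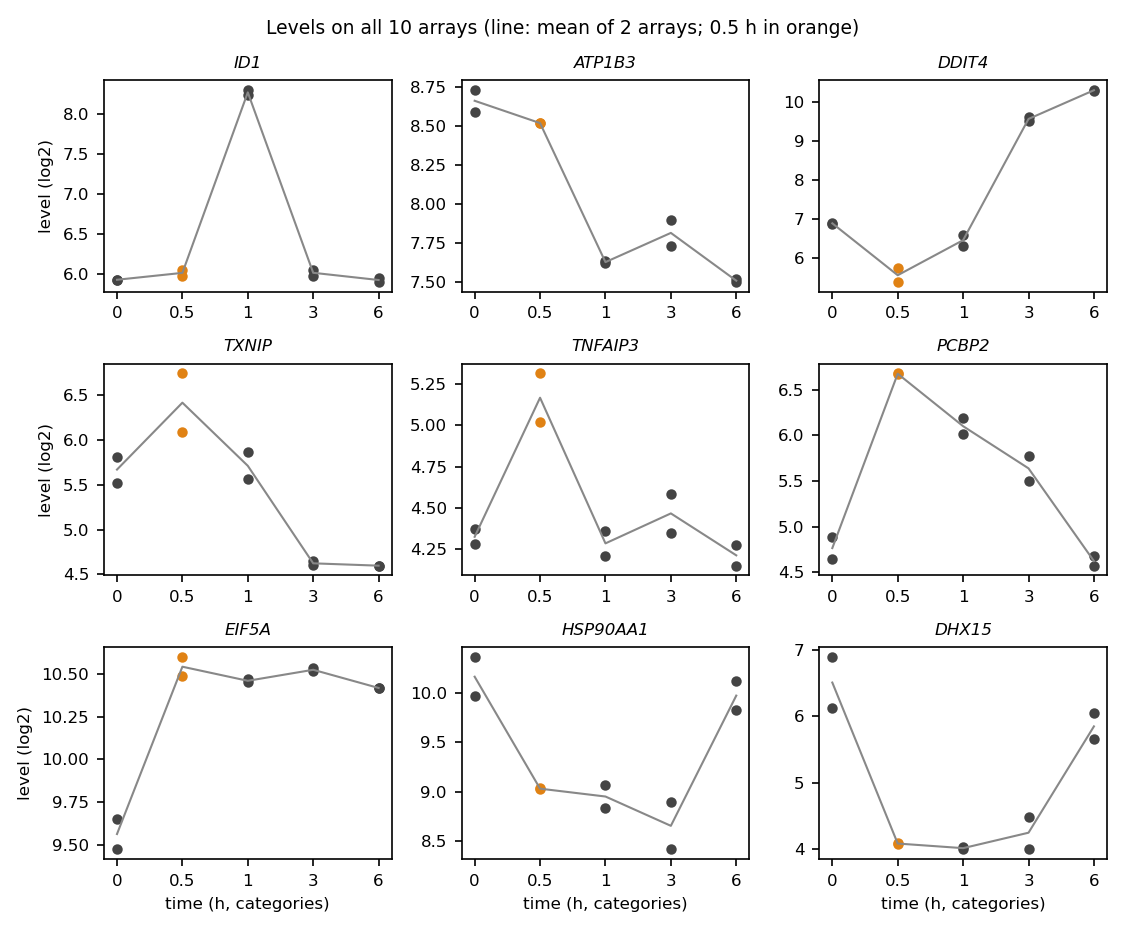
Each panel gives the level (log2) of 1 probe set on all 10 arrays by time (h, drawn as equally spaced categories), with the 0.5 h arrays in orange and a line through the means of the 2 arrays. ID1 stands out at 1 h only, DDIT4 dips at 0.5 h and lies above 9 at 3 h and 6 h, TNFAIP3 and TXNIP peak at 0.5 h, EIF5A stays above 10 from 0.5 h on, and HSP90AA1 lies between 9.8 and 10.2 at 6 h, near its 0 h levels.

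The levels after 0.5 h are given beside those of 0 h as values, since all these differences share the 0 h arrays. Over the 646 probe sets called lower the median change from 0 h was -0.98, -1.26, -0.93 and -0.50 at the times 0.5, 1, 3 and 6 h in turn. Over the 82 called higher it was 0.55, 0.38, 0.26 and 0.07. HSP90AA1 stood at 9.06 and 8.84 at 1 h, 8.89 and 8.41 at 3 h and 9.83 and 10.12 at 6 h, and NPM1 at 9.86 and 9.82 at 1 h, 10.96 and 10.39 at 3 h and 11.41 and 11.46 at 6 h, so that both were near their 0 h levels on the 6 h arrays. HSPA9 stood at 6.35 and 6.39 at 1 h and 7.11 and 6.64 at 3 h, below both 0 h arrays, as were its 6 h arrays. EIF5A, in its brightest set, stood at 10.45 and 10.47 at 1 h, 10.54 and 10.52 at 3 h and 10.42 and 10.42 at 6 h, above both 0 h arrays throughout.

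DDIT4, a stress-induced inhibitor of mTORC1, fell first and stood high later. It stood at 6.88 and 6.90 at 0 h and 5.74 and 5.39 at 0.5 h and fell by 1.33 (SE 0.14, adjusted p = 0.00299) at 0.5 h, then stood at 6.60 and 6.32 at 1 h, 9.60 and 9.51 at 3 h and 10.31 and 10.28 at 6 h. KLF10 passed from its low at 0.5 h to 4.18 and 4.16 at 1 h, 5.56 and 5.55 at 3 h and 6.78 and 6.92 at 6 h. TXNIP, after its rise, stood at 5.87 and 5.56 at 1 h and under 4.7 on the 3 h and 6 h arrays, and TNFAIP3 at 4.21 and 4.36 at 1 h, 4.35 and 4.58 at 3 h and 4.15 and 4.28 at 6 h, back at its 0 h levels. DNAJC7 stood at 6.12 and 6.12 at 1 h, and CASP2 at 9.02 and 8.51 at 1 h and under both 0 h arrays at 6 h. DDIT4 held its call without any 1 of the 4 arrays.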

How the data were processed

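RNA of MOLT-4 cells was hybridised to Affymetrix human arrays, 2 at each of 5 times. The deposited value of a probe set is a score from the authors' use of GCRMA (per the submitters' processing notes, with no version given there). The values lie close to the square of a log2 level, so their square root was used as log2, a step inferred from the values that no source used here states. Probe sets other than controls with a deposited score of at least 25 (level 5) on 2 or more of the 10 arrays were kept.

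The fit used all 10 arrays (limma 3.58.1, R 4.3.3, moderated test with 5 residual degrees of freedom, and Benjamini-Hochberg adjustment over 4276 probe sets), and was tested on simulated data. The number of arrays limits the precision, with a median SE of 0.15. Probe sets were named from the platform annotation with symbols updated through RefSeq, and only those with 1 symbol were named. Named were up to 12 called probe sets a direction with the largest changes past 2-fold on both arrays, up to 12 genes a direction with all of 2 or more probe sets called, up to 5 members with the largest t in each list with at least 3 calls, and CD47 and the tested immediate early genes. Chosen after their values were seen were BNIP3L, CFL1, EEF1D, EIF2S1, EIF2S3, EIF3H, EIF3L, EIF3M, EIF4E2, EXOSC2, EXOSC8, GNAI3, HNRNPH1, HSP90AB1, HSPD1, LSM4, PSMA7, PSMC1, PSMC2, PSMD1, RPS10, TCF3, UCP2 and VCP, the 1 h genes ID1 and ATP1B3, and the uncalled genes that no part of this rule takes. The members and the 57 function lists were chosen with earlier results of these data known. Groups within lists were chosen after the values were seen. These were the parts of the proteasome, the CCT ring, prefoldin, eIF2, eIF3 and the 2 ribosomal subunits. Same-numbered arrays did not deviate together (correlations -0.23 to 0.15 over 10 pairs of times, 2 of them over 0.1), so numbers were not used as pairs. Alternatives changed the scale, the scaling between arrays, the filter, the floor, the covariates, a block and the arrays included. The result of 1 function list is not reported here.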

Additional observations from a re-analysis of the deposited data

How the results depend on the processing

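The counts at 0.5 h against 0 h (728 called, 82 higher, 646 lower, 70 genes with all probe sets lower, 2 with all higher) moved by over 1.5 times as follows. On the log2 of the deposited values 46 genes had all lower and 1 all higher, and 1 had all higher on untransformed values and with an intensity trend. Equal array medians gave 295 higher and 9 genes all higher, and quantile normalization 334 and 11. With no filter 307 were called, 46 higher and 261 lower, with 3 genes all lower and 0 all higher. With a filter at level 7 the counts were 475 called, 417 lower and 4 all higher. The 18S covariate gave 9 called, 1 higher and 8 lower, and 0 genes of either kind, and the spike-in covariate 234, 14 and 220, with 13 genes all lower and 0 all higher. Leaving out 1 array gave 128 to 536 called, 7 to 66 higher, 121 to 470 lower, 1 to 40 genes all lower and 0 all higher. The same with equal array medians, an alternative chosen after seeing the data, gave 429 called without 0 h replicate 1, 448 without 0.5 h replicate 2, and 753 and 806 without the others. With the replicate number as a block 738 were called, 84 higher and 654 lower, 72 genes had all lower and 1 all higher.

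Against 0.5 h, 1 h had 2 probe sets called, and 1 on log2 values, with the block and with either covariate, 5 with no filter, 10 with a filter at level 7, and 1 to 2 without 1 array. The cause of these shifts was not tested, beyond the fewer or more probe sets and arrays that a filter or an omission leaves. Of 260 called probe sets of named genes, 249 were called with the block, 244 with equal array medians, 239 on floored levels, 63 without 0 h replicate 1 and 68 without 0.5 h replicate 2. No named call changed sign under the alternatives run. With 2 arrays a time, small changes and levels under 5 are not resolved.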
